A study of Mus musculus with 12 samples.

Results

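The 10 genes described here encode the main heat-inducible chaperones and co-chaperones of the cytosol and of the mitochondrial matrix: Hspa1a, Hspa1b, Hspa8, Hsph1, Dnajb1, Hsp90aa1, Bag3, Hspb1, Hspd1 and Hspe1. They were taken by symbol from a table of 46078 gene IDs, and all 10 were among the 17496 genes with a mean of at least 10 normalized counts that were tested. Hippocampal RNA was sequenced from C57BL/6 mice on postnatal day 25 (P25), from males and females heterozygous for Chd8 Asn2373LysfsX2, a frameshift mutation of a chromatin remodeller gene, and from wild-type males and females. Each of the 4 groups held 3 libraries, and no agent or other allele is named for any group. The labels limit the mutation to no tissue, so effects arising within the hippocampus and effects reaching it from elsewhere cannot be told apart. Nor do they tie each library to an animal of its own, so the p-values reflect the variation of libraries, some of which may be technical.

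Cytosolic and mitochondrial heat shock proteins keep other proteins folded. Damaged or unfolded proteins release heat shock factor 1 (HSF1) from chaperones that hold it inactive, and HSF1 then binds repeats of nGAAn, the heat shock element, in front of chaperone genes. In the unstressed brain neurons already hold high levels of the constitutive Hsp70 and Hsp90 chaperones, whereas the inducible Hsp70 genes and the small heat shock proteins are low and respond to stress. The question set here was whether Bag3, whose product links Hsp70 to small heat shock proteins and directs their clients to autophagy, moves with the other targets of HSF1.

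Genotype was not all that set the libraries apart. The read totals recovered from the table were 23721482 to 24654408 in mutant males, 26912998 to 33327314 in wild-type males, 23803605 to 24580863 in mutant females and 30016094 to 32284243 in wild-type females, so depth and genotype cannot be told apart. The mean log2 level of 15 choroid plexus markers was 5.19 in mutant male 2, 5.56 in mutant male 3 and 5.04 in wild-type female 1, and 9.43 to 11.19 in the other 9 libraries. Chd8 had 2383 to 2513 normalized counts in the 6 mutant libraries and 2751 to 2994 in the 6 wild-type libraries, with no overlap. All 8 markers of hippocampal neurons were detected in every library, the lowest being Spink8 at 264 to 573 normalized counts. Prox1, the transcription factor of dentate granule cells, had 4332 to 5320 normalized counts.

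The regulatory sequences of Bag3 and Hspb1 are given first, because these genes had the largest differences between mutant and wild-type females. Each line is the 250 bases in front of the gene's RefSeq start on GRCm38.p6, 5′ to 3′ on the gene's strand, and capitals mark GAANNTTC or TTCNNGAA, that is, adjacent units of the heat shock element. Hspa1b, one of the inducible Hsp70 genes, is shown beside them for comparison.
Bag3 (chr7:128523333-128523582, plus strand): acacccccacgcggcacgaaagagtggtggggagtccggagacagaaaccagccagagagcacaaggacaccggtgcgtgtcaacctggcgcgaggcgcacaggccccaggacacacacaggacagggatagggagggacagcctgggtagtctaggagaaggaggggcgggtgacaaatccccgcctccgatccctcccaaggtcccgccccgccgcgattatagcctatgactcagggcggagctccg
Hspb1 (chr5:135887669-135887918, plus strand): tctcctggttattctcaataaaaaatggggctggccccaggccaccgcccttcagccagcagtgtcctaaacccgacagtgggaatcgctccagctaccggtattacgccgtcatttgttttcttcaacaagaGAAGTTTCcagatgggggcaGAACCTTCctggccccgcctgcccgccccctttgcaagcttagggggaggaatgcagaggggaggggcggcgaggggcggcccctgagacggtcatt
Hspa1b (chr17:34959239-34959488, minus strand): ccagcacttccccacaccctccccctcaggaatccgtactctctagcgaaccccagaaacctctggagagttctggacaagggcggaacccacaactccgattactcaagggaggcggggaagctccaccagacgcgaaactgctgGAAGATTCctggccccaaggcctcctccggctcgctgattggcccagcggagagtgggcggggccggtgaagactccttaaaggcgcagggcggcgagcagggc

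The Hspb1 stretch holds 2 such matches, starting 117 and 97 bases before the start, and the Hspa1b stretch holds 1, starting 104 bases before it. Bag3 has 0 matches in the stretch shown and 1 just after its start, at base 43. RefSeq promoter windows of 300 bases, 250 before and 50 after the start, were at hand for 8 of the 10 genes, as 11 windows. Of these 8 genes, 7 held a 2-unit match on either strand in at least 1 window. Of all 32851 mouse promoter windows of that length 15.1% held one, a share of windows and not of genes. Dnajb1 held none, which says no more than that these letters are not in its windows. Hsp90aa1 and Hspa8 were not among the windows.

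Longer arrays of 3 units, GAANNTTCNNGAA or its other strand TTCNNGAANNTTC, stood in windows of 3 of the 8 genes. They stood in 0.603% of all windows, again a share of windows and not of genes. Hspd1 and Hspe1 lie head to head on chromosome 1 and share 1 array between them, 18 bases long, at chr1:55088059-55088076. The third is Hsph1, whose array lies just after its start and which also holds a 2-unit match just before it. The arrays are shown with their flanks on the strand of each gene, and capitals mark them.
Hspe1 (chr1:55088053-55088082, plus strand): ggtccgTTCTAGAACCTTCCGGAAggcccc
Hspd1 (chr1:55088053-55088082, minus strand): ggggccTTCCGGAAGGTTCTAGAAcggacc
Hsph1 (chr5:149636280-149636308, minus strand): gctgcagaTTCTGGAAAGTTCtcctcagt
Hspa1a has its match at the same distance as Hspa1b, and the 300-base windows of these genes were identical at 296 positions. A match of letters is a description of the sequence and not a measured binding site.

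The 10 genes spanned a wide range of levels, compared here as normalized counts per kilobase of exon. Hspa8, the constitutive Hsp70 that refolds proteins and uncoats vesicles, averaged 7710 per kilobase over the 12 libraries (7184 to 8169). Hsp90aa1, the inducible cytosolic Hsp90, averaged 6261 (6008 to 6445). Hspd1, the mitochondrial chaperonin Hsp60, averaged 1836 (1693 to 1943).

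Hsph1, the Hsp110 that exchanges the nucleotide of Hsp70, followed at 1091 per kilobase (1015 to 1149). Hspe1, the Hsp10 lid of the mitochondrial chaperonin, averaged 745 (699 to 793), and Dnajb1, the J-domain partner of Hsp70, 336 (313 to 358). None of these 6 ranges overlapped another. The next 3 genes overlapped one another: Hspa1b averaged 94.9 per kilobase, Hspb1 92.9 and Bag3 78.6. Hspa1a, the second inducible Hsp70, was lowest at 38.8 (29.4 to 47.2), below every library of the 3 before it.

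**Figure D1:**
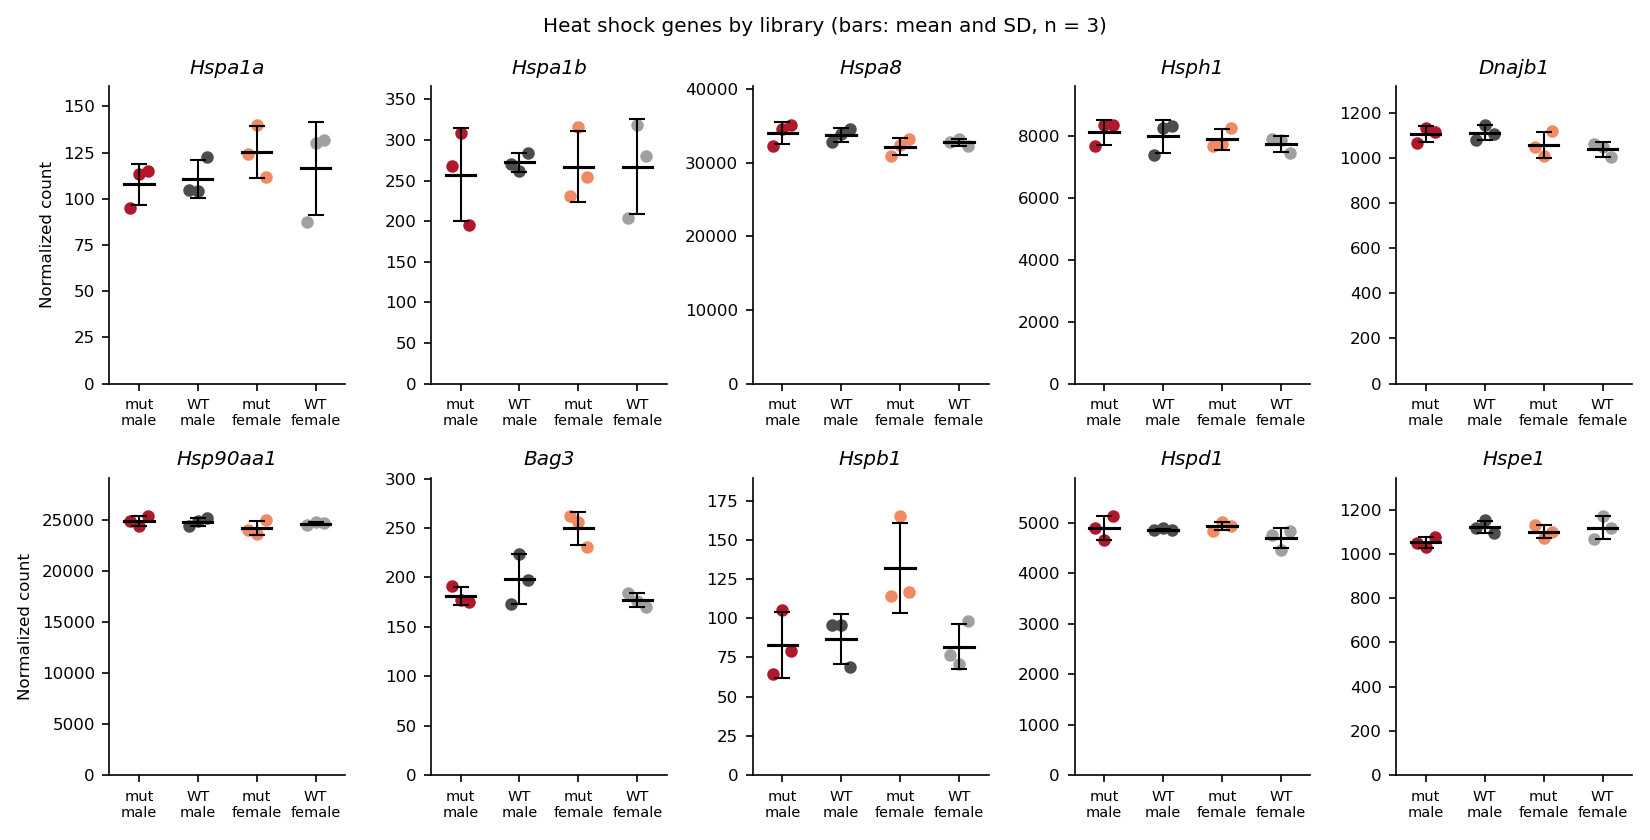
Normalized count of each heat shock gene (vertical axis, starting at 0) in mutant males, wild-type males, mutant females and wild-type females; points are libraries, and bars give the mean and SD of 3 libraries. Bag3 and Hspb1 sit higher in mutant females than in the other groups, while the abundant chaperones differ little between libraries.

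Some of these levels are less certain because near-identical copies exist. Of the 50-base words in Hspa1a exons, 66.3% also occur in another gene, and 62.3% of those of Hspa1b do, mostly in each other. For Hspb1 the share is 50.1%, mainly in the pseudogene Hsp25-ps1. Hsp90aa1 shared 47.5% of its words, Hspd1 42.1%, Hspa8 39.4% and Hspe1 22.8%, whereas Bag3 and Hsph1 shared 0. How reads that fit several genes were counted is not stated in the labels. Hspd1 and Hspe1 also share 112 exon bases on opposite strands, and the library kit does not mark strand, so reads there cannot be told apart.

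No heat shock gene passed the test in any comparison of the genotypes. With limma and Benjamini-Hochberg adjustment over 17496 genes at 0.05, 0 of 10 were called in mutants against wild types averaged over the sexes, where 0.00572% of all tested genes were called, namely 1 gene. The count was also 0 of 10 in males, in females and for the male minus female difference of the genotype effect, each against a background of 0%. edgeR's quasi-likelihood test and limma-voom also called 0 of the 10. DESeq2 called 0 as well, but gave no adjusted p for 6 of the 10 genes in males, for 4 in females, which included Bag3 and Hspb1, and for 1 on average.

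At an unadjusted p under 0.05, the average counted 1 gene of 10, Bag3, where 8.87% of all tested genes lay. Males had 0 of 10 against a background of 10.3%. Females had 2 of 10, Bag3 and Hspb1, against 6.9%. The difference between the sexes had the same 2 of 10, against 7.85%. In the fully ranked list of the female comparison Bag3 was number 8 of 17496 and in that of the difference number 18. With 10 genes, these counts amount to 1 or 2 genes and are given as descriptions.

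Overlap of single libraries showed the same genes. In females every mutant library lay above every wild-type library for 2 of 10 genes, Bag3 and Hspb1, where 5.14% of all tested genes did so, and 0 of 10 lay wholly below, against 5.66%. In males 0 of 10 lay wholly above, against 8.37%, and 1 of 10, Hspe1, lay wholly below, against 7.68%.

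**Figure D2:**
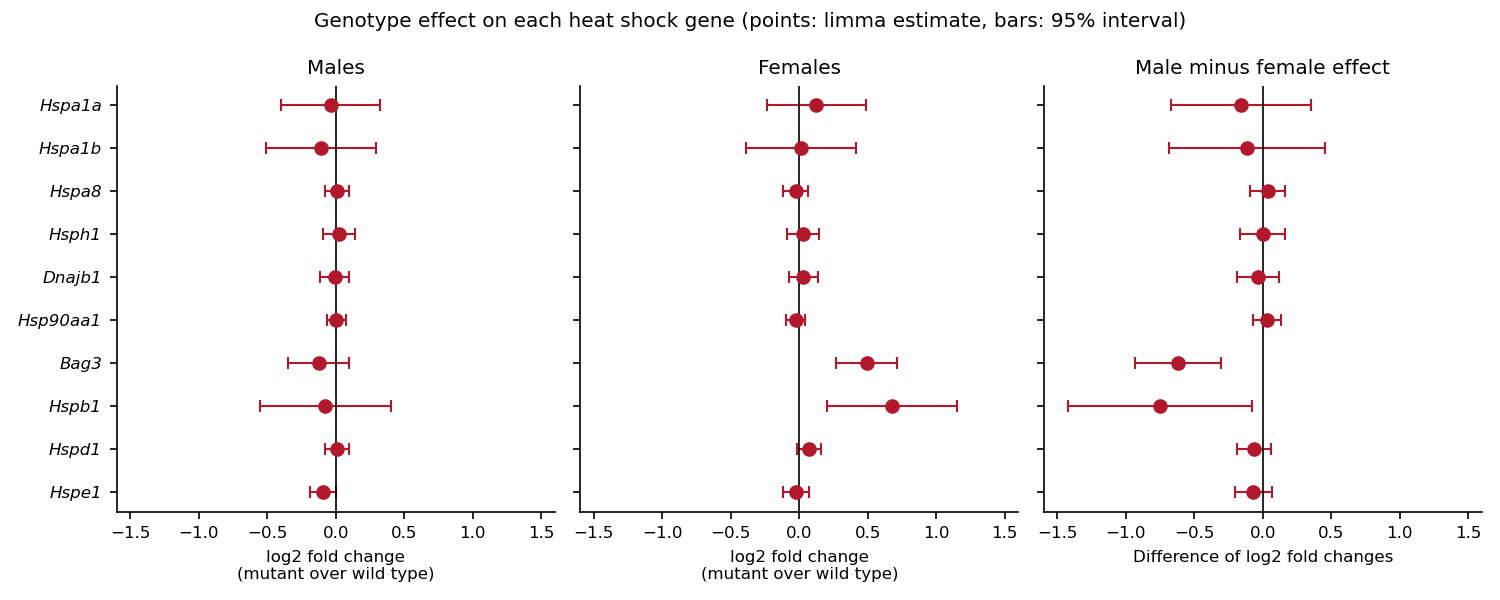
Log2 fold change, mutant over wild type, in males and in females, and the male minus female difference of these effects (horizontal axes) for each heat shock gene; points are limma estimates and bars their unadjusted 95% intervals. The intervals of Bag3 and Hspb1 lie above 0 in females and below 0 for the difference.

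Bag3 was the gene with the clearest separation. It had 262, 256 and 231 normalized counts in mutant females, against 184, 176 and 170 in wild-type females. It had 191, 177 and 175 in mutant males, against 173, 224 and 198 in wild-type males. Mutant females thus held the 3 highest of the 12 values, and the other 3 groups overlapped one another.

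The log2 fold change of Bag3 in females was 0.49 ± 0.10 (SE), a mean of 250 ± 16.5 in mutant and 177 ± 7.1 normalized counts in wild-type females (SD, n = 3 each). Its unadjusted limma p was 0.0004, and the adjusted p of 0.584 missed the threshold. In males the log2 fold change was -0.12 ± 0.10 (limma adjusted p = 0.727). The male effect minus the female effect was -0.62 ± 0.14, with an unadjusted p of 0.0011 and an adjusted p of 0.619. Leaving out any 1 of the 12 libraries gave 0.46 to 0.55 in females, and leaving out the 3 libraries low in choroid plexus markers gave 0.52. Bag3 rests on 156 to 245 recovered reads per library.

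Hspb1 encodes Hsp27, a small heat shock protein that holds unfolded proteins until Hsp70 takes them over and that BAG3 can tie to Hsp70. It had 114, 165 and 117 normalized counts in mutant females, against 76.3, 70.9 and 97.9 in wild-type females. Mutant males had 64.1, 106 and 79.3, against 95.9, 95.8 and 68.6 in wild-type males. As for Bag3, the 3 highest values were those of the mutant females, with mutant female 2 apart from the other two.

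The log2 fold change of Hspb1 in females was 0.68 ± 0.22 (SE), with an unadjusted p of 0.0093 and a limma adjusted p of 0.590. Without mutant female 2 it was 0.51. In males it was -0.08 ± 0.22 (adjusted p = 0.939), and the male minus female difference was -0.75 ± 0.31 (unadjusted p = 0.0314, adjusted p = 0.619). Leaving out the 3 libraries low in choroid plexus markers gave 0.63 in females, -0.41 in males and -1.05 for the difference (limma adjusted p = 0.501, 0.782 and 0.753). Mutant male 1 is then the only mutant male, and its spread is taken to be that of the other groups. Hspb1 was counted from 58 to 152 reads per library, the shallowest of the 10 genes.

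The inducible Hsp70 genes did not separate the groups. Hspa1a had 95.1, 113 and 115 normalized counts in mutant males against 105, 104 and 123 in wild-type males. In females it had 124, 140 and 112 in mutants against 87.2, 130 and 132 in wild types. The groups overlapped in both sexes, and the log2 fold changes of -0.04 in males and 0.13 in females were below their standard error of 0.17.

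Hspa1b had 267, 309 and 196 normalized counts in mutant males against 271, 262 and 284 in wild-type males. Mutant females had 231, 316 and 255 against 203, 319 and 280 in wild-type females. Its log2 fold changes were -0.11 ± 0.19 in males and 0.01 ± 0.19 in females, with limma adjusted p-values of 0.893 and 0.996. The 95% interval in females was -0.39 to 0.42, the widest of the 10 genes after that of Hspb1.

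The abundant chaperones were measured more tightly. Their coefficients of variation over the 12 libraries were 1.94% for Hsp90aa1, 3.45% for Hspd1, 3.60% for Hspa8, 3.76% for Hspe1, 4.42% for Dnajb1 and 4.59% for Hsph1. Those of the low genes were 13.6% for Hspa1a, 15.1% for Hspa1b, 16.5% for Bag3 and 29.3% for Hspb1.

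Hspa8 averaged 33983 ± 1481 normalized counts in mutant males, 33745 ± 909 in wild-type males, 32165 ± 1160 in mutant females and 32754 ± 472 in wild-type females (SD, n = 3 each). Its female log2 fold change was -0.03, with a 95% interval of -0.12 to 0.06. Hsp90aa1 averaged 24857 ± 463 in mutant males, 24790 ± 376 in wild-type males, 24183 ± 680 in mutant females and 24624 ± 146 in wild-type females. Its 95% intervals were -0.07 to 0.07 in males and -0.10 to 0.04 in females. For both genes these intervals leave out the log2 fold change of 0.49 estimated for Bag3 in females.

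Hsph1 averaged 8113 ± 400 normalized counts in mutant males, 7980 ± 526 in wild-type males, 7876 ± 331 in mutant females and 7729 ± 249 in wild-type females. Dnajb1 averaged 1105 ± 35.1 in mutant males, 1110 ± 33.4 in wild-type males, 1058 ± 57.7 in mutant females and 1037 ± 31.3 in wild-type females. The groups of each gene overlapped in both sexes. Log2 fold changes of Hsph1 were 0.02 in males and 0.03 in females, and those of Dnajb1 -0.01 and 0.03, each below its standard error of about 0.05.

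Of the mitochondrial pair, Hspe1 separated mutant from wild-type males and Hspd1 did not. Hspe1 had 1048, 1030 and 1078 normalized counts in mutant males against 1116, 1151 and 1096 in wild-type males, and these did not overlap. Mutant females had 1128, 1071 and 1100 against 1067, 1169 and 1116 in wild-type females, which did overlap. The male log2 fold change of Hspe1 was -0.09 ± 0.04 (unadjusted p = 0.0614, limma adjusted p = 0.506).

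Hspd1 had 4893, 4660 and 5134 normalized counts in mutant males against 4855, 4893 and 4861 in wild-type males. In females it had 4849, 5016 and 4951 in mutants against 4760, 4473 and 4852 in wild types. The log2 fold changes of Hspd1 were 0.01 ± 0.04 in males and 0.07 ± 0.04 in females, with adjusted p-values of 0.975 and 0.780. Over the 12 libraries Hspd1 and Hspe1 had a Pearson r of -0.27 (permutation p = 0.405) and a Spearman rho of -0.20 (permutation p = 0.546), although they share the array printed above.

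Whether Bag3 moved with the other 9 genes was asked over the 12 libraries, as Pearson's r and Spearman's rho of log2(value + 1), with 100000 permutations and adjustment over the 9 relations. No relation passed 0.05. The strongest was with Hspb1, at r = 0.63 (permutation p = 0.0277, adjusted p = 0.250) and rho = 0.35 (permutation p = 0.267, adjusted p = 0.941). That r stood at the 98.7th percentile of the r of Bag3 with all other tested genes.

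The relation with Hspb1 rested on the mutant females. Without mutant females 1 and 2, the libraries farthest from the median of Bag3, r was 0.26. Within groups, as deviations of each library from its group mean, r was -0.15 (permutation p = 0.694 over all 1296 arrangements within groups, adjusted p = 0.914). No relation of Bag3 and Hspb1 was thus detected within groups, and 3 libraries per group are too few to show that there is none. Without the 3 libraries low in choroid plexus markers r was 0.67.

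The other 8 relations were weaker or ran the other way. The r of Bag3 was 0.34 with Hspd1, 0.25 with Hspa1a, 0.13 with Hspe1, 0.05 with Hsph1 and 0.02 with Hspa1b. It was -0.08 with Dnajb1, -0.43 with Hspa8 and -0.50 with Hsp90aa1, with permutation p-values of 0.800, 0.160 and 0.0964 before adjustment. In all, 6 of 9 relations were positive, with a median r of 0.05 against 0.01 for all other tested genes. Within groups 3 of 9 were positive, and the median was -0.08 against 0.002 for all other genes.

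**Figure D3:**
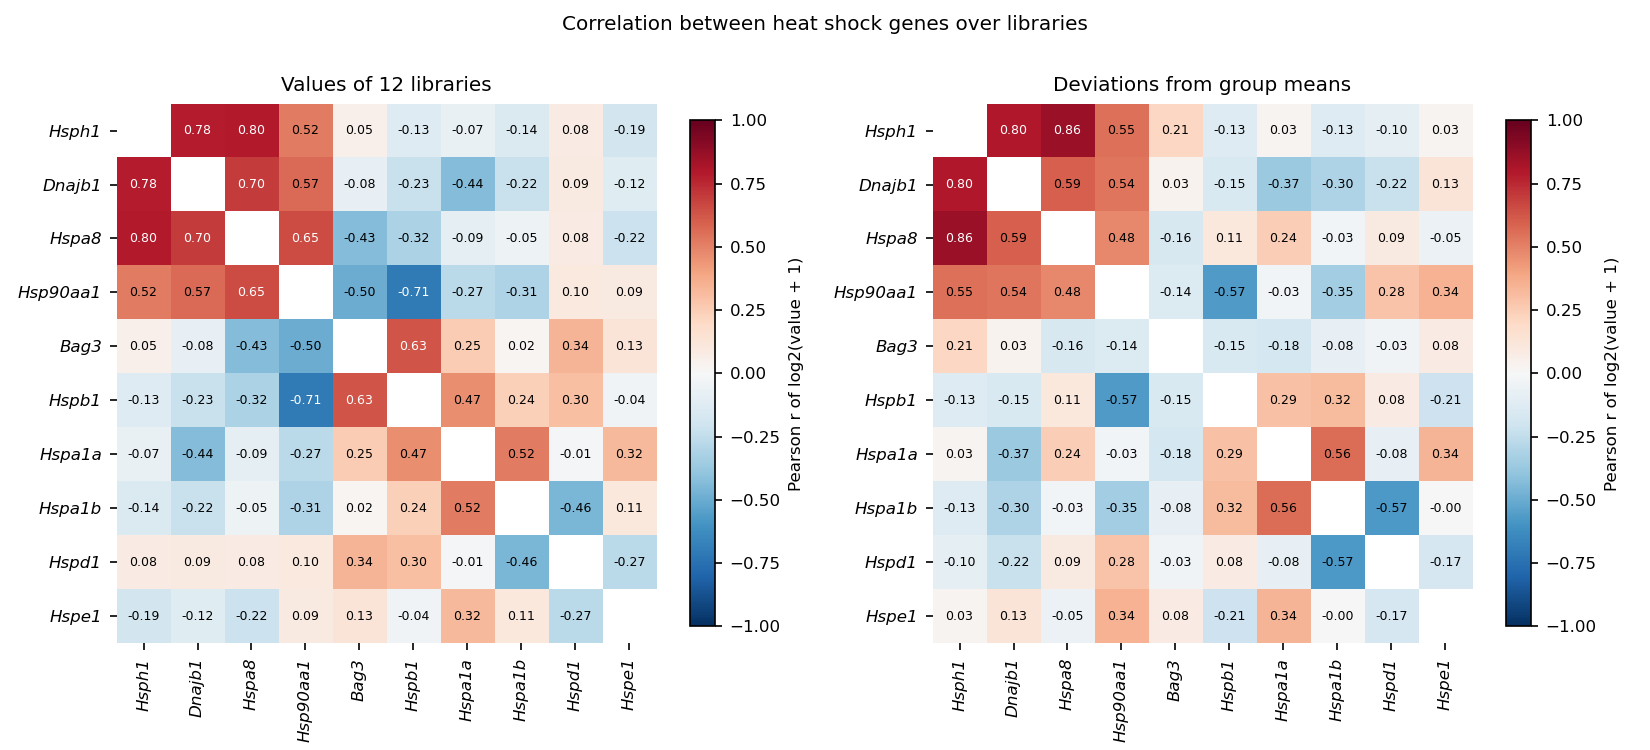
Pearson r of log2(value + 1) between each pair of heat shock genes, over the values of 12 libraries (left) and over deviations from the 4 group means (right); red is positive and blue negative. Hsph1, Dnajb1, Hspa8 and Hsp90aa1 form a positive block in both panels, while the row of Bag3 stays near 0 in the right panel.

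The strongest positive relations lay among Hsph1, Hspa8, Dnajb1 and Hsp90aa1. All 45 pairs of the 10 genes were computed, a family chosen after the data had been seen. Hsph1 and Hspa8 had r = 0.80 (permutation p = 0.0018, adjusted over 45 pairs 0.0792) and rho = 0.87 (adjusted p = 0.0175). Hsph1 and Dnajb1 had r = 0.78 (permutation p = 0.0036, adjusted p = 0.0805) and rho = 0.67 (permutation p = 0.0200, adjusted p = 0.251). Within groups these pairs had r = 0.86 and 0.80. No pair passed 0.05 on the adjusted r, and 6 of 45 lay under 0.05 before adjustment.

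Hsph1 in the 3 mutant males was 7651, 8349 and 8338 normalized counts, and Hspa8 there was 32313, 34501 and 35135. In wild-type males Hsph1 was 7374, 8252 and 8313 and Hspa8 32774, 33884 and 34576. In both groups the first library was lowest for both genes, as it was in mutant females, at 7654 for Hsph1 and 30899 for Hspa8. Among wild-type females, library 3 was lowest for both, at 7442 and 32237. Among the other pairs, Dnajb1 and Hspa8 had r = 0.70 and Hsp90aa1 and Hspa8 0.65, whereas Hspb1 and Hsp90aa1 had r = -0.71.

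Endothelial and fibroblast markers moved with Hspb1. The mean log2 level of 12 endothelial markers was 9.76 to 10.04 in mutant females and 9.65 to 9.71 in wild-type females, and in males 9.62 to 9.79 in mutants and 9.62 to 9.72 in wild types. All 12 had a positive log2 fold change in females, where 50.5% of all tested genes did, with a median of 0.17. For 9 fibroblast markers the level was 9.19 to 10.72 in mutant females and 8.44 to 9.01 in wild-type females, 9 of 9 were positive, and the median was 1.32. In males the fibroblast level was 8.87 to 9.66 in mutants and 8.87 to 9.82 in wild types, and 4 of 9 were positive. For 11 markers of pericytes and smooth muscle it was 8.31 to 9.44 in mutant females and 8.17 to 8.25 in wild-type females, and 11 of 11 were positive. No marker of these 3 lists was at 0 in any library, and limma called 0 genes of these lists. The level of 5 red blood cell markers was also higher in mutant females, at 7.60 to 8.10 against 6.78 to 7.41 in wild-type females. Its r with Hspb1 over the 12 libraries was -0.12.

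Bag3 and Hspb1 were each correlated with the levels of 12 marker lists, 24 relations chosen after the data had been seen. Hspb1 had r = 0.88 with endothelium (permutation p = 0.0003, adjusted p = 0.0062) and rho = 0.86 (permutation p = 0.0008, adjusted p = 0.0194). With fibroblasts it had r = 0.85 (permutation p = 0.0006, adjusted p = 0.0073) and rho = 0.76 (adjusted p = 0.0748). Without the 2 libraries farthest from the median marker level, r was 0.73 with endothelium and 0.68 with fibroblasts. With pericytes and smooth muscle, Hspb1 had r = 0.72 (permutation p = 0.0076, adjusted p = 0.0605) and rho = 0.68 (permutation p = 0.0188, adjusted p = 0.150), which missed the threshold, and r was 0.37 without the 2 farthest libraries. Within groups r with endothelium and fibroblasts was 0.74 and 0.84, with exact permutation p-values of 0.0316 and 0.0054 before adjustment and 0.253 and 0.130 after it.

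For Bag3 the same relations were looser. Its r was 0.65 with endothelium (permutation p = 0.0145, adjusted p = 0.0868), with rho = 0.45 (permutation p = 0.142), and 0.57 with fibroblasts (adjusted p = 0.248). Within groups the r of Bag3 was 0.11 with endothelium and -0.13 with fibroblasts. In bulk RNA, more cells of a type and more RNA per cell cannot be told apart. The part of these cells in the female values of Bag3 and Hspb1 was not tested.

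**Figure D4:**
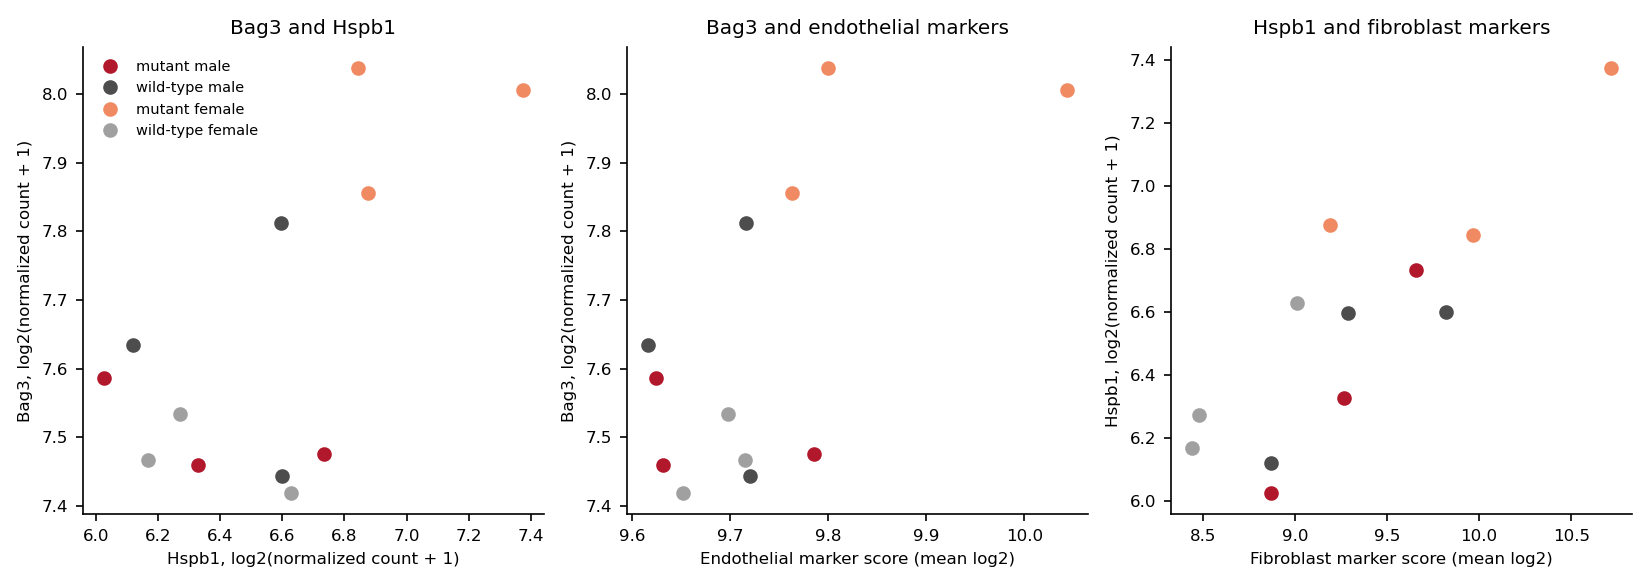
Bag3 against Hspb1 (left) and against the endothelial marker level (middle), and Hspb1 against the fibroblast marker level (right), 1 point per library, all as log2(normalized count + 1) or means of it. The mutant females lie at the top of each panel, and the library with the highest fibroblast level, 10.72, also has the highest Hspb1.

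The genes most like Bag3 within groups were not heat shock genes. By Pearson's r of deviations from group means over the 12 libraries, the 10 closest were Rab11b-ps2 (0.92), Gm14830 (0.92), Cebpz (0.90), Exosc7 (0.89), Gm6030 (0.89), Gm24187 (0.89), A230006K03Rik (0.88), Mettl8 (0.88), Gm9987 (0.87) and Sema4f (0.86). Of these, Cebpz, Exosc7, Mettl8 and Sema4f are protein-coding genes. The 5 least like it were Ccnyl1 (-0.95), Hmgn3 (-0.91), Rtbdn (-0.91), C1qbp (-0.90) and Zfp954 (-0.89). These are the ends of a ranking over 17496 genes and are given with no test.

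No other target of HSF1 on the list passed the test. Of a list of 23, which includes Hsp90ab1, Dnaja1, Hspa4 and Stip1, limma called 0 in any comparison. In females 12 had a positive and 11 a negative log2 fold change, with a median of 0.003 against 0.001 for all tested genes. In males 11 were positive and 12 negative, with a median of -0.003 against 0.002.

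Cryab, a small heat shock protein abundant in oligodendrocytes, had the largest averaged log2 fold change of the list. It had 1775, 1703 and 1954 normalized counts in mutant males against 2095, 2048 and 2112 in wild-type males. In females it had 2038, 2031 and 2084 in mutants against 2057, 2409 and 2430 in wild types. The averaged log2 fold change was -0.18 ± 0.04, with an unadjusted p of 0.0015 and a limma adjusted p of 0.311.

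Oligodendrocyte markers, 10 in number, are set beside Cryab: their mean log2 level was 13.09 to 13.46 in mutant males and 13.42 to 13.56 in wild-type males. In females it was 13.35 to 13.58 in mutants and 13.57 to 13.80 in wild types. None of these markers was at 0, all 10 had negative log2 fold changes in each sex, and their part in the value of Cryab was not tested.

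Hspb8, a small heat shock protein that forms a stable complex with BAG3, had 597, 359 and 400 normalized counts in mutant males against 682, 586 and 598 in wild-type males. Mutant females had 586, 651 and 546 against 438, 432 and 646 in wild-type females. The lowest values in males were those of the 2 libraries low in choroid plexus markers, and wild-type female 1 was 1 of the 2 low values in females. The averaged log2 fold change was -0.12 ± 0.13 (limma adjusted p = 0.832). That average joins opposite signs, -0.49 ± 0.18 in males and 0.26 ± 0.18 in females (limma adjusted p = 0.440 and 0.840). The male minus female difference of Hspb8 was -0.75 ± 0.26 (limma adjusted p = 0.619), with the sign seen for Bag3 and Hspb1. Of the 23 listed targets, 12 had a negative and 11 a positive difference.

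No heat shock factor transcript passed the test. Hsf1 had 1098 to 1138 normalized counts in mutant males, 1061 to 1124 in wild-type males, 1073 to 1096 in mutant females and 1076 to 1122 in wild-type females. Its averaged log2 fold change was 0.002 ± 0.03 (limma adjusted p = 0.991). Of 7 genes of this family and its regulators 5 were tested, 0 were called, and the largest averaged values were -0.26 for Hsf5 and 0.16 for Hsf4. RNA levels of Hsf1 do not report its activity, which is set on the protein.

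Among 6 tested small heat shock proteins outside the 10 genes, of 9 listed, 4 were positive in females and 1 in males. Of all tested genes, 50.5% were positive in females and 50.6% in males. Hspb2 had 15.8, 33.6 and 12.4 normalized counts in mutant females against 7.26, 9.87 and 9.96 in wild-type females, with mutant female 2 highest as for Hspb1. In males it had 16.6, 13.6 and 17.4 in mutants against 20.8, 17.1 and 19.4 in wild types. Its averaged log2 fold change was 0.37 ± 0.23 (limma adjusted p = 0.666), and that of Hspb3, another low gene, -0.32 ± 0.31. By sex, the log2 fold change of Hspb2 was 1.00 ± 0.32 in females and -0.25 ± 0.32 in males (limma adjusted p = 0.590 and 0.841). The male minus female difference of Hspb2 was -1.25 ± 0.46 (limma adjusted p = 0.619). Of the 6 genes, 4 had a negative and 2 a positive difference.

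Of 11 genes of the BAG family and partners of BAG3, limma called 0. In females 8 of the 11 had a positive log2 fold change, where 50.5% of all tested genes did, and in males 9 of 11, where 50.6% did. The largest averaged log2 fold changes were 0.16 ± 0.13 for Synpo2, an actin-binding partner of BAG3, and -0.15 ± 0.22 for Hspb6. Hspb6 had 84.8 and 89.6 normalized counts in mutant males 3 and 2 and 79.9 in wild-type female 1, the libraries low in choroid plexus markers, against 108 to 197 in the other 9.

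**Figure D5:**
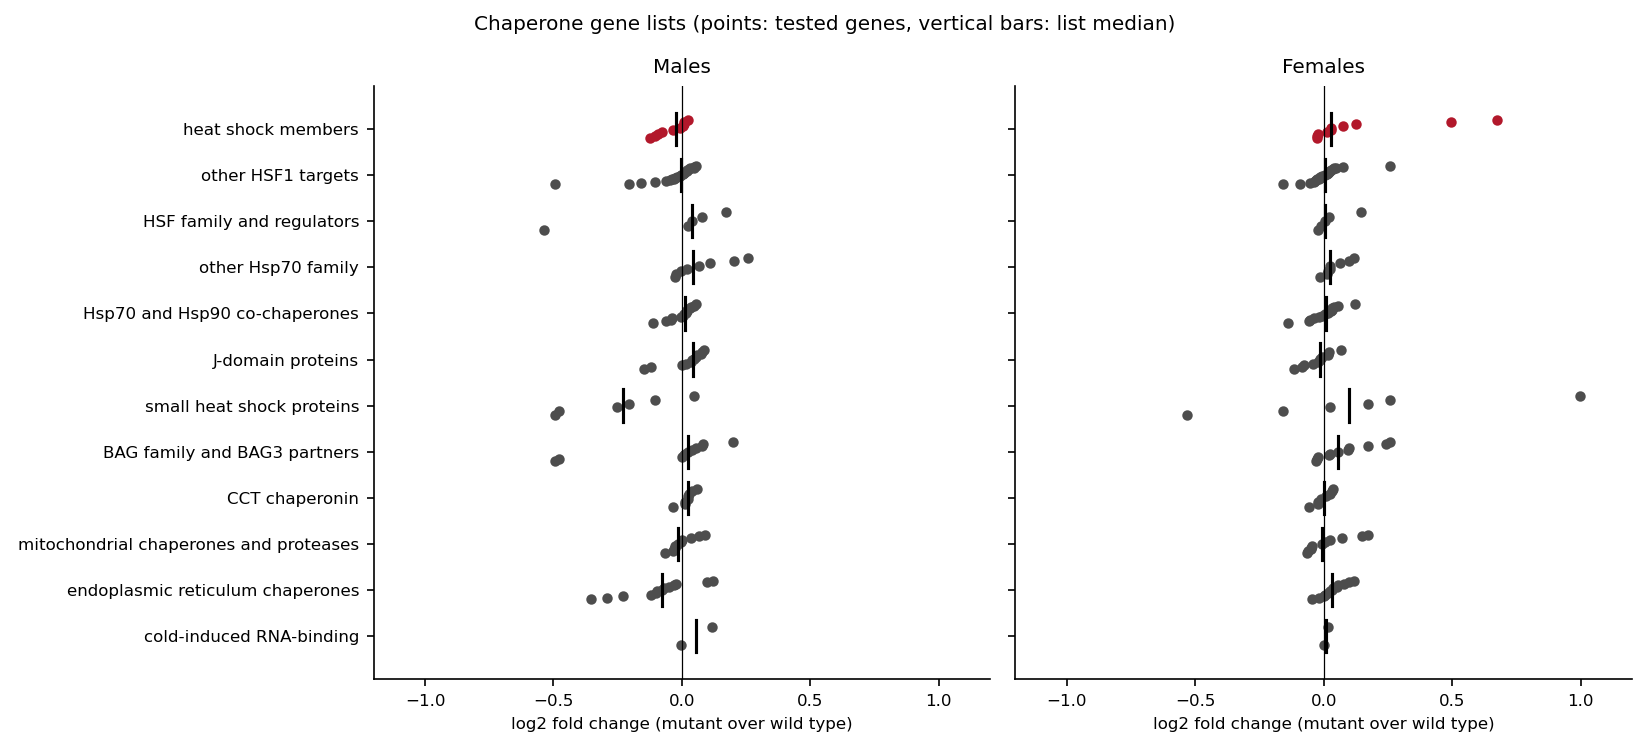
Log2 fold change, mutant over wild type, of the tested genes of each chaperone list in males (left) and females (right); points are genes and vertical bars list medians, with the 10 heat shock genes in red. Bag3 and Hspb1 are the separate red points at 0.49 and 0.68 in females.

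The remaining chaperone lists held 0 called genes in limma. Some genes stand in more than 1 list, Hspa4 among them. The counts below stand against 50.5% of all tested genes positive in females and 50.6% in males. Of 8 other Hsp70 family genes tested, 7 were positive in females and 5 in males, and the largest averaged values were 0.16 for both Hspa1l, the testis Hsp70, and Hspa12b. Of 14 co-chaperones of Hsp70 and Hsp90, 8 were positive in females and 9 in males, led by Hspbp1 at -0.09 and Unc45a at -0.09. Of 12 J-domain proteins, 4 were positive in females and 10 in males, led by Dnajb2 at -0.12 (unadjusted p = 0.0074, adjusted p = 0.385) and Dnaja4 at -0.12 (adjusted p = 0.491).

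The CCT chaperonin, which folds actin and tubulin, had 4 of 8 subunits positive in females and 7 in males, and its largest averaged value was 0.03, for Cct3 and Cct2. Of 11 mitochondrial chaperones and proteases, 5 were positive in females and 4 in males. Of that list Htra2, a protease between the mitochondrial membranes, had 0.12 ± 0.04 (unadjusted p = 0.0149, adjusted p = 0.426), and Hscb 0.12 ± 0.10. The cold-induced RNA-binding genes Rbm3 and Cirbp had 0.07 ± 0.08 and -0.002 ± 0.05.

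Chaperones of the endoplasmic reticulum answer to a separate stress pathway. In males 11 of 13 had a negative log2 fold change, with a median of -0.08 against 0.002 for all tested genes. In females 11 of 13 were positive, with a median of 0.03 against 0.001. Choroid plexus markers ran in the same directions: 15 of 15 were negative in males, with a median log2 fold change of -3.51, and 15 of 15 positive in females, with a median of 1.74. None of the 15 was at 0 in any library, and their part in the values of this list was not tested.

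Hspa5, the Hsp70 of this compartment, had 5602, 4913 and 5125 normalized counts in mutant males against 5769, 6727 and 5856 in wild-type males. Mutant females had 5192, 5453 and 5842 against 5358, 5071 and 5896 in wild-type females. The 2 lowest male values were those of mutant males 2 and 3, the libraries low in choroid plexus markers.

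The male log2 fold change of Hspa5 was -0.23 ± 0.07 (unadjusted p = 0.0088, limma adjusted p = 0.418), and its male minus female difference was -0.24 ± 0.10 (adjusted p = 0.619). Sdf2l1, which works with chaperones of the same compartment, had an averaged log2 fold change of -0.18 ± 0.09 (adjusted p = 0.592). Among the main heat shock genes named at the outset, only Hspe1 separated mutant from wild-type males. Outside that set, Cryab, Dnaja4, Unc45a, Hspa5, Sdf2l1 and Chd8 also had every mutant male below every wild-type male. Of all tested genes, 7.68% did so.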

How the data were processed

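Hippocampal RNA was measured in 12 libraries. Per the labels' protocols these were TruSeq RNA v2 libraries, which do not mark strand. DESeq2, HTSeq, TopHat2 2.1.0, Trimmomatic 0.35 and GRCm38 are named in the submitters' processing notes, with no roles. The deposited signal for each Ensembl ID is a count after division by the library's size factor. In each library 100% of the deposited values were whole multiples of 1 step within 1e-06 reads, and dividing by the step gave back the counts. Symbols were found for 45229 of 46078 IDs, and coordinates and exon lengths are from GENCODE M21 on GRCm38. The table held 0 columns of other samples. The labels used here give no sequencing batch, and no library pair of a group agreed within counting noise (chi-square per degree of freedom 3.38 to 29.97).

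Groups came from the sample titles. Since the values were not raw counts, limma 3.58.1 (R 4.3.3, trend) was fitted on log2(value + 1), which understates fold changes of low genes, with 1 mean per group over 12 libraries, for genes with a mean of at least 10. P-values were adjusted over all 17496 tested genes at 0.05. Adjusted p-values are from limma unless named otherwise. Levels are ± SD and fold changes ± SE. edgeR 4.0.16, DESeq2 1.42.0 and limma-voom on the recovered reads were alternatives. The fitting code was tested on simulated data. The members and all gene lists were chosen with earlier results of these data known. Named were the 10 members and the 10 genes most and 5 least like Bag3 within groups. Per list, the 2 genes with the largest averaged fold change were named. Chd8, Hsf1, Prox1, Spink8, Hsp25-ps1, Hsp90ab1, Dnaja1, Hspa4 and Stip1 were named in addition. Promoter sequences are from RefSeq on GRCm38.p6. Permutation tests are two-sided.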

Additional observations from a re-analysis of the deposited data

How the results depend on the processing

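Each of 54 results was recomputed under 23 other settings of the fit or 19 of the correlations, 1202 values in all. The counts of members called, and of members correlated with Bag3, were 0 under every setting. The smallest adjusted p under any setting that gave one was 0.115 for a fold change of a member and 0.154 for a correlation with Bag3. Over all genes, the averaged, male, female and difference comparisons had 75, 35, 11 and 3 calls with DESeq2 and 1, 0, 0 and 0 with edgeR's quasi-likelihood test. The sign changed in 90 of the 1202 values, each with an adjusted p of at least 0.658, and for none of the 4 comparisons of Bag3 or the female comparison of Hspb1. With mutant males 2 and 3 and wild-type female 1, all low in choroid plexus markers, left out, on average the log2 fold change was -0.14 for Hspa1a, -0.00896 for Hsph1 and -0.00621 for Dnajb1. In males the log2 fold change was -0.0585 for Hsph1 and -0.0622 for Hspa8. In females the log2 fold change was -0.0691 for Hspa1a and -0.17 for Hspa1b. For the difference between the sexes the log2 fold change was 0.15 for Hspa1b and -0.038 for Hspa8. The r of Bag3 was -0.35 with Hspa1b, 0.098 with Dnajb1 and -0.16 with Hspe1. With the choroid plexus level as a covariate, in males the log2 fold change was 0.0383 for Hspa1a, 0.0601 for Hspa1b, -0.0346 for Hsph1 and -0.032 for Hspa8. In females the log2 fold change was -0.0679 for Hspa1b. For the difference between the sexes the log2 fold change was 0.13 for Hspa1b and -0.0253 for Hspa8. With upper-quartile factors, in males the log2 fold change was 8.73e-05 for Dnajb1. For the difference between the sexes the log2 fold change was 0.00286 for Hsph1. As deviations from group means, the r of Bag3 was -0.18 with Hspa1a, -0.0828 with Hspa1b, -0.15 with Hspb1, 0.0331 with Dnajb1 and -0.0325 with Hspd1. Without the 2 libraries farthest from the median of Bag3, the r of Bag3 was -0.22 with Hspa1a, -0.0494 with Hspa1b, 0.57 with Dnajb1, 0.32 with Hsp90aa1 and 0.088 with Hspa8.

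Same-numbered libraries correlated at -0.58 to 0.29 in their deviations from group means. These values cannot decide whether the replicate numbers pair the libraries, since choroid plexus levels also differed within groups. With the replicate block, the number of members called was 0 in each comparison, 0 genes of the whole table were called in any comparison, the female log2 fold change of Bag3 was 0.49 (adjusted p = 0.550), and the r of Bag3 was -0.23 with Hspa1a, -0.40 with Hspa1b, -0.39 with Hspb1, 0.0707 with Dnajb1 and 0.29 with Hsp90aa1.

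Leaving out 1 library at a time changed the sign of 27 results. The r of Bag3 ran -0.30 to 0.21 with Dnajb1, -0.20 to 0.20 with Hspa1b, -0.00351 to 0.32 with Hspe1 and -0.0984 to 0.22 with Hsph1. For the difference between the sexes the log2 fold change ran -0.0709 to 0.00634 for Dnajb1, -0.26 to 0.0326 for Hspa1a, -0.26 to 0.0658 for Hspa1b and -0.0578 to 0.0397 for Hsph1. On average the log2 fold change ran -0.0104 to 0.0283 for Dnajb1, -0.0528 to 0.0953 for Hspa1a, -0.14 to 0.0453 for Hspa1b, -0.0208 to 0.00937 for Hspa8 and -0.00218 to 0.0466 for Hsph1. In females the log2 fold change ran -0.0135 to 0.0637 for Dnajb1, -0.0691 to 0.23 for Hspa1a, -0.17 to 0.15 for Hspa1b, -0.0494 to 0.00193 for Hspa8, -0.0553 to 0.011 for Hspe1 and -0.00773 to 0.0469 for Hsph1. In males the log2 fold change ran -0.027 to 0.0185 for Dnajb1, -0.00995 to 0.0169 for Hsp90aa1, -0.0859 to 0.0513 for Hspa1a, -0.25 to 0.0782 for Hspa1b, -0.0149 to 0.0455 for Hspa8, -0.26 to 0.0925 for Hspb1, -0.0284 to 0.0416 for Hspd1 and -0.0311 to 0.0665 for Hsph1. Low counts limit Hspb1, Hspa1a and Bag3; counting error is only part of their spread. The causes of these shifts were not tested.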
